A study of Mus musculus with 6 samples.

Results

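The receptor-interacting protein (RIP) kinases Ripk1, Ripk2, Ripk3 and Ripk4, the pseudokinase Mlkl, and the receptors Nod1 and Nod2 were examined in mouse liver. They are 7 genes with 12 target rows among the 44170 target rows of the array, a target row being the value summarised from 3 probes for 1 transcript sequence. The gene descriptions on the array gave 8 of these rows. The other 4 (the second Mlkl row, the Nod1 row and both Nod2 rows) carry older or clone names and were found through synonyms in the RefSeq gene table. The genes were chosen because of their levels in the comparison described here, so their values and differences are a description and carry no test.

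Liver RNA was measured in 6 wild-type C57 BL/6 males aged 9 to 10 weeks, with 1 mouse per single-colour array. The LPS group was 3 mice given 0.01 µg of lipopolysaccharide (LPS), a component of the outer membrane of Gram-negative bacteria. The LPS/GalN group was 3 mice given the same LPS together with 20 mg of D-galactosamine (GalN), an amino sugar that depletes uridine nucleotides in hepatocytes and sensitises the liver to tumour necrosis factor (TNF). Both groups had been treated for 2.5 h, and each replicate was a separately treated mouse. Neither untreated animals nor animals given only GalN were analysed here. A lower level in LPS/GalN may thus be a smaller rise or a larger fall.

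Ripk1 is recruited to the TNF receptor, where it serves as a ubiquitin-bound scaffold for NF-κB signalling and, when that scaffold is lost, as a kinase that starts apoptosis with Fadd and caspase-8 or necroptosis with Ripk3. In necroptosis Ripk3 phosphorylates Mlkl, which then permeabilises the plasma membrane. Nod1 and Nod2 are cytosolic sensors of bacterial peptidoglycan fragments and signal through Ripk2. Ripk4 belongs to the same kinase family and is known for its part in the differentiation of stratified epithelium. Hepatocytes are described as holding little Ripk3.

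Promoter sequences from RefSeq (GRCm38.p6) were listed for 5 of the 7 genes, in 7 windows, with 2 alternative starts each for Ripk1 and Nod1. Ripk2 and Ripk4 were not in that table. The 250 bases before each start were searched on both strands for sequences known from LPS- and interferon-responsive promoters. GGNNTTTCC, an NF-κB form, matched in the Nod2 window only of the 7, and in 4.93% of all 32851 windows. GAAANNGAA, the core of the interferon-stimulated response element, matched in 0 of the 7 windows and in 7.13% of all. TTCNNNGAA, the form bound by STAT dimers (the GAS element), matched in 2 of the 7 windows and in 7.02% of all. The narrower TTCCNGGAA, every match of which is also a TTCNNNGAA match, occurred in the same 2 windows and in 0.913% of all. Forms with 10 letters of the NF-κB and interferon elements, also searched, matched in 0 of the 7 windows, and in 1.41% and 2.98% of all. The windows of Mlkl, which was lower in LPS/GalN, and of Ripk3, whose groups overlapped, held no match of any form searched. Whether the matches bear on transcript levels was not tested. All matches are printed 5′ to 3′ on the gene's strand, with the matching bases in capitals.
Ripk1, second start, chr13:34002756-34002785, plus strand: agaagctggtTTCCCGGAAggggcggaggc
Ripk1, second start, chr13:34002844-34002873, plus strand: gcgggcgggacttcaaacgTTCCCGGAAat
Nod1, second start, chr6:54971835-54971864, minus strand: ggctggctgcTTCCAGGAAcctcctatggt
Nod2, chr8:88647118-88647147, plus strand: ctgacactgaGGGCTTTCCtagctcttgtt
The Ripk1 matches begin 108 and 11 bases before the start, the Nod1 match 193 bases before it, and the Nod2 match 219 bases before it. A match describes these letters only. Neither binding nor activity of a promoter was measured.

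The arrays were evenly scaled, with medians of 60.4 to 63.1 in the deposited linear intensity. A row of random probes, taken as the background level, read 31.3 to 34.7. The 6 hepatocyte markers (Alb, Ttr, Apoa1, Cyp2e1, Fgb and Tat) summed to between 241000 and 281000 on every array, and each stood above the random-probe row. Some arrays also carried transcripts of other tissues. The sum of 8 intestinal epithelium markers was 24500 and 26400 on LPS replicates 1 and 2, against 1800 to 2150 on the other 4 arrays. The sum of 5 thymus and T cell markers was 7440 and 4060 on LPS/GalN replicates 2 and 3, against 254 to 440 elsewhere. On the same arrays 4 keratinocyte and squamous epithelium markers summed to 901 and 343, against 133 to 197 elsewhere. Of the 4, only Krt5 and Krt14 were higher on both of these arrays than on every other array. Trp63 and Dsg3 lay within their range on the other arrays. Values below are therefore also given without LPS replicates 1 and 2, and without LPS/GalN replicates 2 and 3. LPS replicate 3 and LPS/GalN replicate 1 are left when both pairs are taken out.

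**Figure D1:**
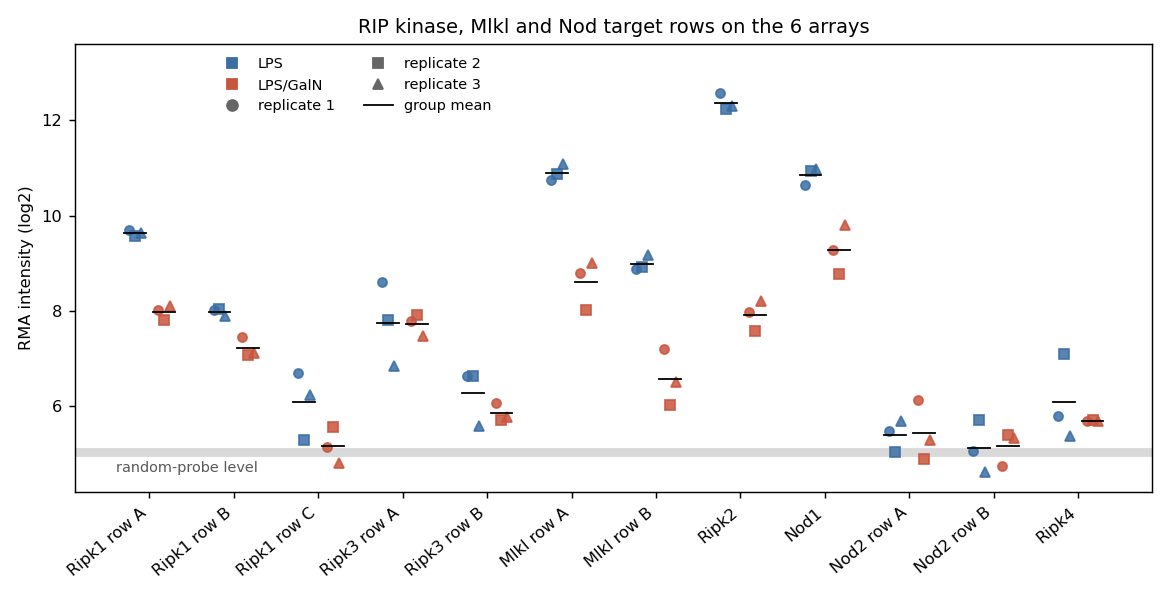
Log2 RMA intensity (vertical axis) of the 12 target rows of the RIP kinases, Mlkl and the Nod receptors on the 6 arrays. Blue points are LPS mice, red points LPS/GalN mice, the marker shape is the replicate number, black lines are group means and the grey band is the range of the random-probe row. Ripk2, both Mlkl rows, Nod1 and Ripk1 rows A and B have every LPS/GalN array below every LPS array. Heights may be compared within a row and not between rows, whose probes differ.

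Of the 7 genes, Ripk2, Mlkl, Ripk1 and Nod1 were lower in LPS/GalN than in LPS, while Ripk3, Nod2 and Ripk4 had groups that overlapped in every row. In the limma fit over all 44170 rows, 5 of the 12 rows had a Benjamini-Hochberg adjusted p under 0.05 and a lower level in LPS/GalN, against 3.13% of all rows. No row was past that threshold in the higher direction, where 0.654% of all rows were. At an unadjusted p under 0.05 the counts were 7 lower and 0 higher, beside 4034 lower and 3707 higher of all 44170 rows. Groups did not overlap, with LPS/GalN lower, in 6 of the 12 rows and in 11.1% of all rows. The median difference of the 12 rows was -0.84 on the log2 scale, beside 0.053 over all rows. Since the genes were chosen on this comparison, nothing is read from these counts.

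Ripk2, the adaptor kinase of the Nod receptors, had the widest gap of the 7 genes. Its row, in the gene at mm9 chromosome 4, 16050521 to 16090647, read 6090, 4800 and 5100 in the 3 LPS mice and 252, 191 and 299 in the LPS/GalN mice. The lowest LPS array was thus far above the highest LPS/GalN array, and every LPS/GalN array still stood above the random-probe row. Mean log2 intensity was 12.37 ± 0.18 (SD, n = 3) in LPS and 7.93 ± 0.33 (SD, n = 3) in LPS/GalN, a difference of -4.45 ± 0.25 (SE), or 21.8-fold lower. With 1 array left out at a time the difference stayed between -4.59 and -4.27, and the row passed the threshold each time. LPS replicate 3 against LPS/GalN replicate 1 alone, the pair with low intestinal and thymic marker sums, gave -4.34.

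Nod1, the receptor for peptidoglycan fragments that contain meso-diaminopimelic acid, was also lower. Its row (mm9 chromosome 6, 54873942 to 54921655) read 1610, 1950 and 2010 in LPS and 619, 441 and 890 in LPS/GalN. The groups did not overlap, and LPS/GalN replicate 3 came closest to the LPS mice. The log2 means were 10.85 ± 0.17 and 9.28 ± 0.51 (SD, n = 3 each), a difference of -1.57 ± 0.30 (SE), or 2.97-fold lower. Its place past the threshold depended on the arrays used. With 1 array left out at a time the difference lay between -1.82 and -1.32, and only without LPS/GalN replicate 3 did the row still pass. The single pair with low foreign marker sums gave -1.70.

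Nod2, the receptor for muramyl dipeptide, was near background throughout. Row A, the short isoform by its description (mm9 chromosome 8, 91176763 to 91189412), read 44.6, 33.2 and 51.5 in LPS and 70.2, 29.6 and 39 in LPS/GalN. Row B, of the same gene (mm9 chromosome 8, 91171245 to 91189599), read 33.5, 52.8 and 24.8 in LPS and 27.2, 42.4 and 40.1 in LPS/GalN. Neither row separated the groups, and each lay above the random-probe row on only some arrays: 2 of 3 in each group for row A, 1 of 3 LPS and 2 of 3 LPS/GalN for row B. Both rows gave a difference of 0.03, with SEs of 0.35 and 0.33. A difference in Nod2 of the size seen for Nod1 cannot be judged from rows this close to background.

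Mlkl, the effector of necroptosis, had 2 rows, and both were lower in LPS/GalN. Row A (mm9 chromosome 8, 113835697 to 113862077) read 1720, 1880 and 2160 in LPS and 447, 262 and 511 in LPS/GalN. Row B, a clone of the same gene (113835699 to 113861803), read 473, 484 and 579 in LPS and 148, 64.8 and 91 in LPS/GalN. On both rows all LPS mice were above all LPS/GalN mice, and LPS/GalN replicate 2 was the lowest array. The differences were -2.29 ± 0.30 for row A (4.89-fold lower) and -2.41 ± 0.32 for row B (5.33-fold lower), so the rows differed from each other by less than their SEs. Both rows passed the threshold with each array left out in turn, with ranges of -2.48 to -2.00 and -2.73 to -2.13. The single pair of arrays with low foreign marker sums gave -2.28 and -1.96.

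Ripk1, the kinase that links the TNF receptor to both survival and death signalling, was lower, with rows that differed in size. Row A (mm9 chromosome 13, 34094265 to 34127039) read 835, 767 and 797 in LPS and 259, 224 and 275 in LPS/GalN. These replicates were tight, with log2 means of 9.64 ± 0.06 and 7.97 ± 0.15 (SD, n = 3 each), and the difference was -1.67 ± 0.21 (SE), or 3.18-fold lower. It stayed between -1.73 and -1.58 with 1 array left out at a time, past the threshold each time, and was -1.62 in the single pair.

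Row B of Ripk1 (34094742 to 34127039) read 261, 263 and 238 in LPS and 175, 135 and 139 in LPS/GalN. The groups did not overlap here either, but the difference was smaller, at -0.77 ± 0.22 (SE), and the row did not pass the threshold. It did pass when only the rows of the deposited value table were fitted. Row C, whose clone spans only the first part of the gene (34094265 to 34106555), read 105, 39.4 and 75.6 in LPS and 35.5, 47.4 and 28 in LPS/GalN. Its groups overlapped, 1 of its LPS/GalN arrays lay below the random-probe row, and its difference was -0.91 ± 0.39 (SE). The 3 rows of Ripk1 share a sign and not a size. Row C lies near background and row B does not, and the reason for the unlike sizes was not tested. Which part of each transcript the probes cover is not given in the files.

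**Figure D2:**
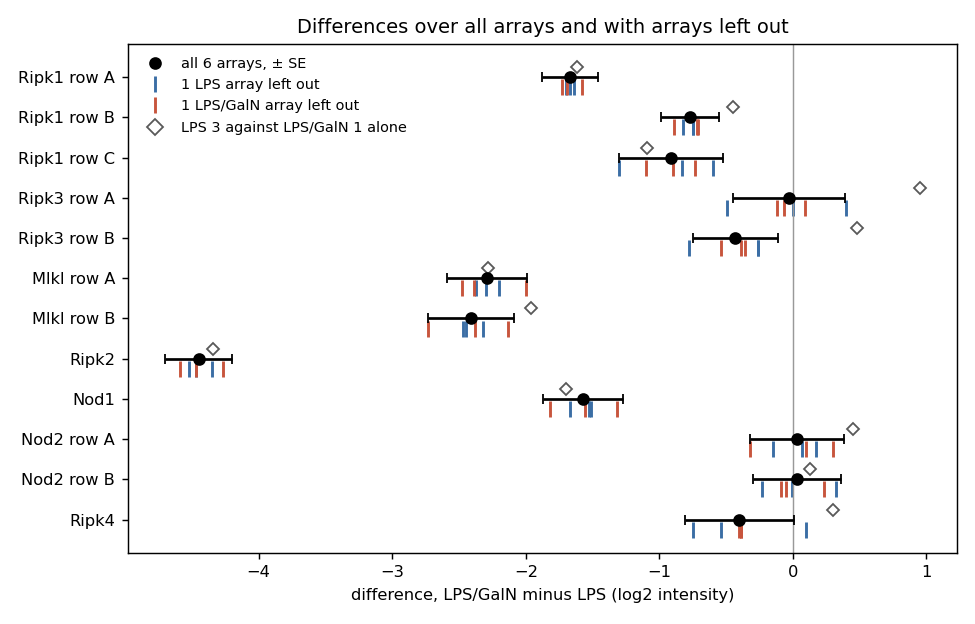
Difference between LPS/GalN and LPS in log2 intensity (horizontal axis) for each of the 12 target rows. Black points with bars are all 6 arrays ± SE, ticks leave out 1 LPS array (blue) or 1 LPS/GalN array (red), and open diamonds compare LPS replicate 3 with LPS/GalN replicate 1 alone. Ripk2, Mlkl, Ripk1 and Nod1 stay left of 0 in every variant shown, while both Ripk3 rows, both Nod2 rows and Ripk4 fall on both sides of 0.

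Ripk3, the kinase that activates Mlkl, did not separate the groups. Row A (mm9 chromosome 14, 56403833 to 56407623) read 392, 226 and 115 in LPS and 222, 240 and 178 in LPS/GalN. The LPS mice held both the highest and the lowest value, with a log2 SD of 0.89 (n = 3) against 0.22 (n = 3) in LPS/GalN, and the difference was -0.03 ± 0.42 (SE). Row B (56403831 to 56407645) read 99, 98.8 and 48.1 in LPS and 67.2, 52.7 and 54.4 in LPS/GalN, a difference of -0.43 ± 0.32 (SE). On both rows LPS replicate 3 was the lowest of the 6 arrays. LPS/GalN replicates 2 and 3, which carried thymus and T cell transcripts, read 240 and 178 on row A against 222 on LPS/GalN replicate 1, and 52.7 and 54.4 on row B against 67.2. The part of those transcripts in the Ripk3 rows was not tested.

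Ripk4 (mm9 chromosome 16, 97963539 to 97985324) read 55.7, 136 and 42 in LPS and 51.8, 52.5 and 51.5 in LPS/GalN. A single array, LPS replicate 2, stood well above the other 5, which lay close together. The difference was -0.40 ± 0.41 (SE), and without LPS replicate 2 it was 0.10.

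Ripk3 and Ripk4 were set beside the intestinal markers array by array. The highest Ripk3 row A value (392, LPS replicate 1), both highest row B values and the highest Ripk4 value were on arrays with high intestinal marker sums. On Ripk3 row A, LPS replicate 2 (226) had a high sum as well but lay between LPS/GalN replicates 1 and 2 (222 and 240). On LPS replicates 1 and 2, 8 of 8 intestinal markers were above the random-probe row, and on each of the other 4 arrays 6 of 8 were. Vil1, which encodes the microvillus protein villin, read 8400 and 8280 on those arrays and 53.2 to 148 on the others. Krt20, an intestinal keratin, read 4940 and 5220 against 28.4 to 66.1. Ripk4 was high on LPS replicate 2 only. Among the markers, Vil1, Cdx1 and Lgals4 were highest on LPS replicate 1, and Fabp2, Sis, Muc2, Krt20 and Cdx2 on LPS replicate 2. Only Cdx2, an intestinal transcription factor, was high on LPS replicate 2 alone. It read 39.2, 128 and 20.8 in LPS and 28.9 to 47.7 in LPS/GalN, near background on the arrays other than LPS replicate 2. The marker sums of LPS replicates 1 and 2 were alike. Without both arrays the difference was 0.89 for Ripk3 row A, 0.26 for Ripk3 row B and 0.31 for Ripk4, so each turned from negative to positive, with none past the threshold. The part of intestinal RNA in these 3 rows was not tested.

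The rows with lower levels kept their sign without the arrays that had high marker sums, and Ripk2, Ripk1 row A and Nod1 moved little in size. Ripk1 row B went from -0.77 to -0.68 without LPS replicates 1 and 2, and to -0.54 without LPS/GalN replicates 2 and 3. Mlkl row B, at -2.41 over all arrays, was smaller without LPS/GalN replicates 2 and 3. When LPS replicates 1 and 2 were left out, the differences were -4.39 for Ripk2, -2.47 and -2.60 for the Mlkl rows, -1.66 for Ripk1 row A and -1.69 for Nod1. With a single LPS array left, 0 of the 44170 rows passed the threshold. Leaving out LPS/GalN replicates 2 and 3 gave -2.10 and -1.78 for the Mlkl rows, -1.63 for Ripk1 row A and -1.58 for Nod1, and only Ripk2 of the 12 rows then passed. The lone array of a group is assumed in these fits to vary like the other group.

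**Figure D3:**
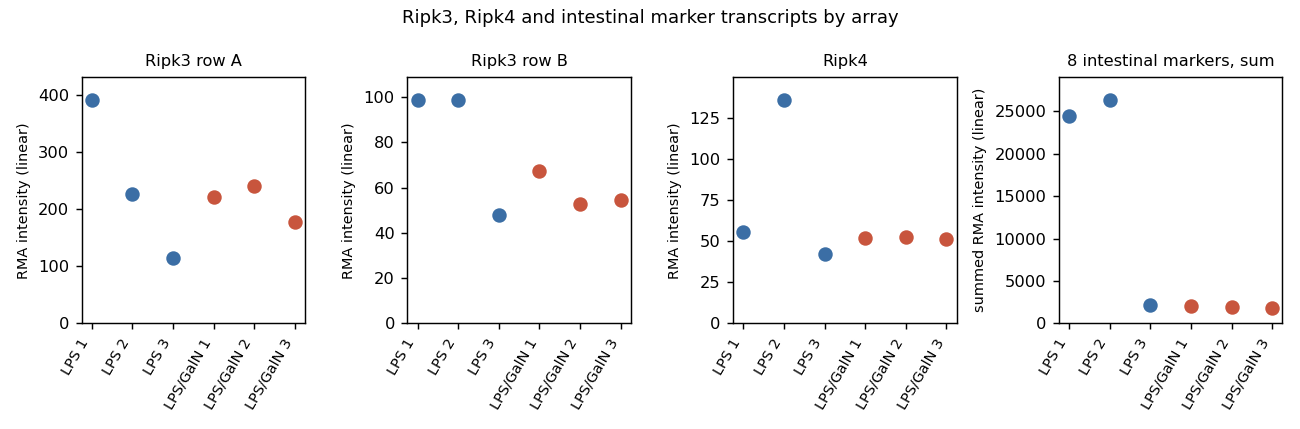
Linear RMA intensity (vertical axes) of both Ripk3 rows and the Ripk4 row on each array, beside the summed intensity of 8 intestinal epithelium markers. Blue points are LPS mice and red points LPS/GalN mice. The marker sum is 24500 and 26400 on LPS replicates 1 and 2 and at most 2150 elsewhere; Ripk3 row B is near 99 on those 2 arrays, and Ripk4 reaches 136 on LPS replicate 2 only.

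No Kupffer cell or endothelial marker was lower past the threshold. The 7 Kupffer cell and macrophage markers summed to 5580 to 7540 in LPS and 9190 to 11400 in LPS/GalN. By the limma fit 0 of 7 were past the threshold in either direction. At an unadjusted p under 0.05, 0 were lower and 4 higher, beside 4034 lower and 3707 higher of all 44170 rows. Of 5 sinusoidal endothelium markers, Pecam1 and Tie1 were higher past the threshold, and the sums were 3110 to 4610 against 6050 to 6530. All 12 of these markers were above the random-probe row on every array. In whole tissue, fewer cells of a type and less RNA per cell cannot be told apart, and the cells that held the transcripts of the 7 genes were not identified.

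Transcripts of genes that work with the RIP kinases and Nod receptors were followed through a list of 53 pathway partners, of which 50 had a target row, the brightest being used. In LPS/GalN, 15 of the 50 were lower past the adjusted threshold and 0 were higher. By the same rule, 3.05% were lower and 0.649% higher when the brightest row of every gene on the array was taken. Rows without a usable gene name were each counted as a gene there. Fitting only the 18076 rows of 50 or more on all arrays called 16 of 44 partners lower and 1 higher. Of all those rows, 1660 were lower and 758 higher. At an unadjusted p under 0.05 the partner counts were 21 lower and 3 higher, beside 4034 lower and 3707 higher of all 44170 rows. A limma fit with a trend and robust spread called 18 partners lower and 3 higher, beside 2001 and 1093 of all rows. The median difference of the 50 genes was -0.45. Of the 15, 9 passed with each array left out in turn, and 6 (Tnfrsf1a, Spata2, Cflar, Zbp1, Ticam1 and Tbk1) lost their call without at least 1 array. Without LPS replicate 2 or LPS replicate 3 the count of lower partners was 9. The list was drawn up with earlier results of these data known.

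**Figure D4:**
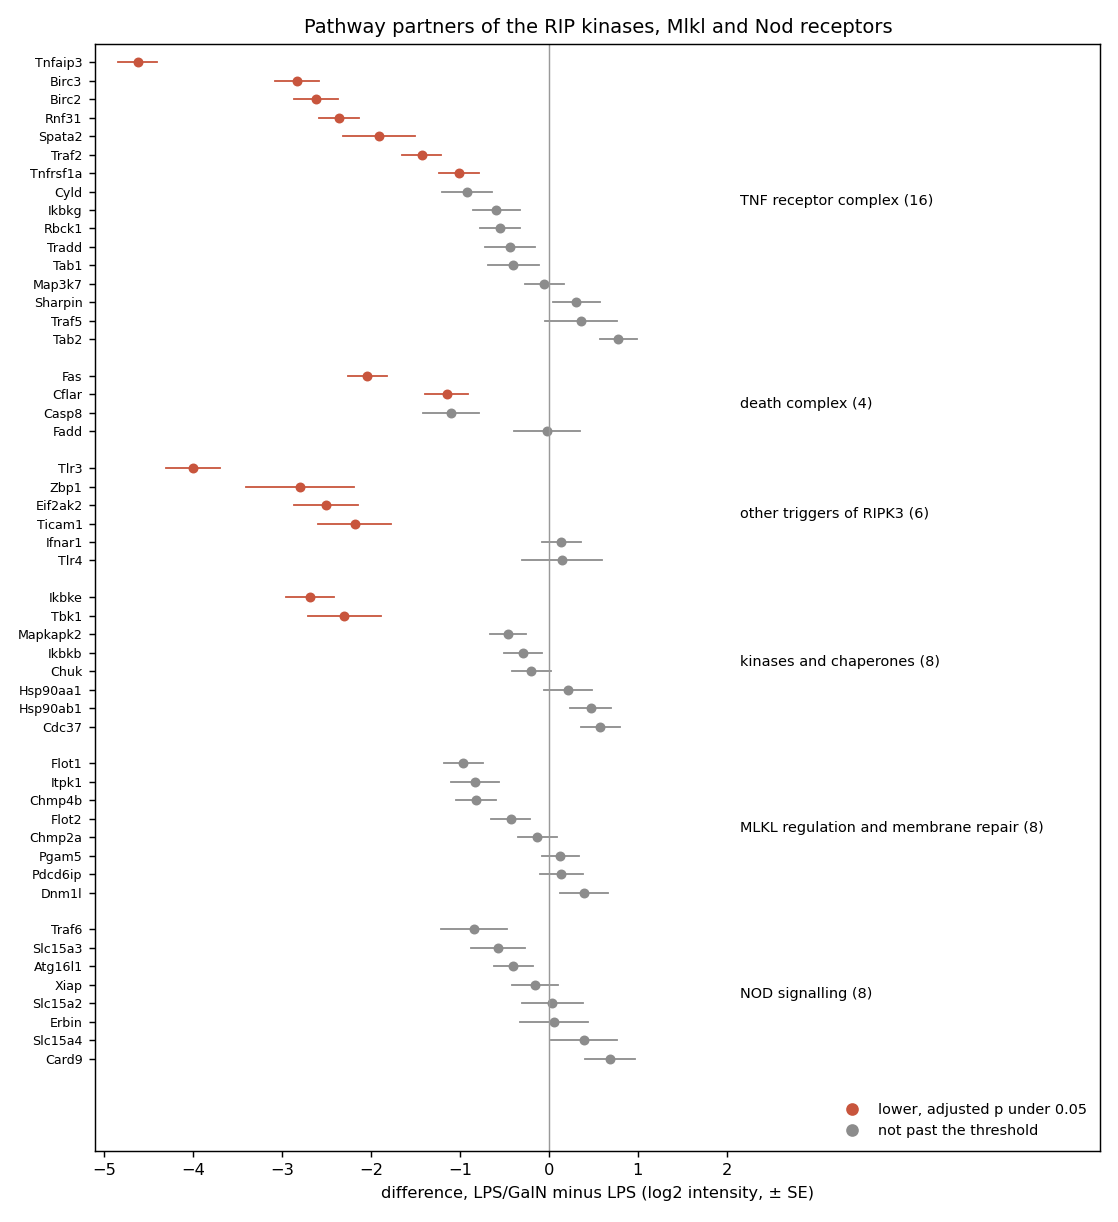
Difference between LPS/GalN and LPS in log2 intensity ± SE (horizontal axis) for the 50 pathway partners, grouped by role, with the number of genes in brackets. Red points are lower with an adjusted p under 0.05 and grey points are not past the threshold. The 15 red points lie in the TNF receptor complex, the death complex, the other triggers of Ripk3 and the kinases and chaperones.

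In the TNF receptor complex, which carries Ripk1, 7 of 16 genes were lower and the median difference was -0.75. Tnfaip3, which encodes the ubiquitin-editing enzyme A20 that restrains Ripk1 and NF-κB, read 2410, 2450 and 1940 in LPS and 100, 89.7 and 85 in LPS/GalN. Each LPS value was many times each LPS/GalN value, a difference of -4.62 ± 0.22 (SE; limma adjusted p = 0.000214). Birc3 and Birc2 encode the cellular inhibitors of apoptosis, the ligases that ubiquitinate Ripk1 and Ripk2. Birc3 read 4050, 3600 and 3060 against 418, 473 and 627, 7.11-fold lower (limma adjusted p = 0.000971). Birc2 read 2870, 2700 and 1970 against 355, 383 and 487, 6.14-fold lower (limma adjusted p = 0.00139).

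The catalytic subunit of the linear ubiquitin ligase, Rnf31, was lower, with a difference of -2.36 ± 0.22 on the log2 scale. Its other subunits did not pass: Rbck1 differed by -0.55 ± 0.22, and the 2 Sharpin rows had opposite signs, at 0.31 and -0.57. Traf2, the adaptor that brings the inhibitors of apoptosis to the receptor, was lower, at -1.43 ± 0.22. Tnfrsf1a, the main TNF receptor, read 3900, 4710 and 4190 in LPS and 1820, 2290 and 2280 in LPS/GalN, 2.01-fold lower (limma adjusted p = 0.0493). That call was lost whichever array was left out, with differences of -1.07 to -0.90. Spata2, which joins the deubiquitinase Cyld to the complex, was lower with all arrays (-1.91 ± 0.41) and kept its call only without LPS/GalN replicate 2. Cyld itself differed by -0.92 ± 0.28 and did not pass, and its 3 rows ranged from -1.28 to -0.17, with none past the threshold. Tab2, which encodes a partner of the kinase TAK1, differed by 0.78 ± 0.21, did not pass (limma adjusted p = 0.0975) and was called higher in the trend and robust fit. Map3k7, the kinase TAK1 that is activated on this complex, had the largest p of the group, with 324, 260 and 306 against 282, 259 and 317. Traf5 had 2 rows that disagreed, the brighter at 0.36 and the dimmer at -1.78, the dimmer past the threshold.

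In the death complex, 2 of 4 genes were lower. Fas, the death receptor, read 3610, 3830 and 3580 in LPS and 944, 753 and 1000 in LPS/GalN, 4.11-fold lower (limma adjusted p = 0.00222). Cflar, whose product cFLIP holds caspase-8 in check, read 6450, 6950 and 9050 against 3810, 3390 and 2890, 2.21-fold lower (limma adjusted p = 0.04). With 1 array left out at a time, the Cflar call held only without LPS/GalN replicate 1, although all 3 of its rows passed in the full fit. Casp8, which cleaves Ripk1 and Ripk3, differed by -1.10 ± 0.31 and did not pass (limma adjusted p = 0.11), but did in the trend and robust fit. Its groups, at 1040, 1020 and 923 against 539, 295 and 624, did not overlap. A dimmer Casp8 row differed by -0.65 and did not pass. Fadd, the adaptor between receptor and caspase, had groups that overlapped and a difference of -0.02 ± 0.37.

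Among the other routes to Ripk3, 4 of 6 genes were lower, with a median of -2.34. Tlr3, the endosomal receptor for double-stranded RNA, read 1140, 973 and 1560 in LPS and 52.9, 93.3 and 86.7 in LPS/GalN, a difference of -4.0 ± 0.30 (SE; limma adjusted p = 0.000514), and all 3 of its rows passed. Eif2ak2, the double-stranded RNA kinase PKR, read 882, 535 and 841 against 155, 79.6 and 174 (limma adjusted p = 0.00701). Ticam1, the adaptor TRIF that binds Ripk1 and Ripk3 directly, was lower, with a difference of -2.18 ± 0.41 on the log2 scale, a call that held only without LPS replicate 1 or LPS/GalN replicate 1. Zbp1, a nucleic acid sensor that binds Ripk3, read 3960, 3160 and 4790 in LPS and 1410, 210 and 599 in LPS/GalN. Its groups did not overlap, but the LPS/GalN mice ranged widely, and the difference of -2.80 ± 0.61 (limma adjusted p = 0.0459) held only without LPS/GalN replicate 1 and was lost in the trend and robust fit. Tlr4, the LPS receptor, was near background at 24.3 to 70.8, and its groups overlapped.

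Of 8 kinases and chaperones that act on the RIP kinases, the TBK1 and IKKε genes, whose products phosphorylate Ripk1 and also activate interferon factors, were lower. Ikbke read 5830, 7240 and 5670 in LPS and 1290, 732 and 971 in LPS/GalN, 6.40-fold lower (limma adjusted p = 0.00168). Tbk1 read 980, 1100 and 1160 against 118, 221 and 402, 4.92-fold lower (limma adjusted p = 0.0211), a call that held without LPS/GalN replicate 1 or 3 and was lost without any other array. The genes of IKKα and IKKβ, Chuk and Ikbkb, differed by -0.20 ± 0.22 and -0.29 ± 0.21 and did not pass. The 8 rows of Ikbkb ranged from -0.89 to 0.52, with none past the threshold. Hsp90aa1, a chaperone of the RIP kinases, had the largest p of the group, at 0.21 ± 0.27. The trend and robust fit called 2 of the 8 lower and 2 higher, the latter being the chaperone gene Hsp90ab1, at 0.47 ± 0.23, and its co-chaperone Cdc37, at 0.58 ± 0.22.

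None of the 8 genes of Mlkl regulation and membrane repair passed in the limma fit, with 3 lower and 0 higher at an unadjusted p under 0.05 and a median of -0.28. The trend and robust fit called 3 of them lower and 0 higher: Itpk1, a kinase of the inositol phosphates that Mlkl needs, at -0.83 ± 0.27, the lipid raft gene Flot1 at -0.96 ± 0.22, and Chmp4b. Chmp2a, of the ESCRT machinery that sheds damaged membrane, had the largest p, at -0.13 ± 0.22. A dimmer row of Chmp4b, of the ESCRT machinery too, was lower past the threshold at -1.10, with the brighter row at -0.82. None of the 8 genes of Nod signalling passed either, with 0 lower and 1 higher at an unadjusted p under 0.05, a median of -0.06, and 0 calls in the trend and robust fit. Xiap, the ligase that ubiquitinates Ripk2 after Nod receptors are engaged, read 1970, 1270 and 1910 in LPS and 1690, 1340 and 1510 in LPS/GalN. Slc15a2, a peptide carrier, lay near background and had the largest p of that group.

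For the 4 genes whose brightest row separated the groups, the 2 named genes with the most similar profile over the 6 arrays were found among 13382 rows, by the root mean square distance of centred log2 values. The nearest to Ripk2 were a row of Tlr3, at 0.089 with a difference of -4.54, and growth arrest and DNA-damage-inducible 45 gamma, at 0.12 with -4.47. The nearest to Ripk1 row A were purine-nucleoside phosphorylase (0.045, difference -1.73) and Stat2 (0.061, difference -1.74). The nearest to Mlkl row A were the potassium channel tetramerisation domain gene Kctd3 and Parp9, both at 0.13. Nod1 lay nearest to nicotinamide N-methyltransferase, at 0.11, and Parp12, at 0.12. Profiles over 6 arrays are dominated by the difference between the 2 groups, so each list names genes that differ by a like amount.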

How the data were processed

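Per the labels, Cy3-labelled liver RNA of 3 LPS and 3 LPS/GalN mice was hybridised to NimbleGen one-colour arrays with 3 probe pairs per gene. The authors deposited RMA intensity on a linear scale, per the submitters' processing notes and the file headers; RMA corrects background and normalizes between arrays, so a global change would be removed. Coordinates are the mm9 gene spans of the deposited files. A deposited value table held the 18076 rows of 50 or more on all arrays and served as an alternative.

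Intensities were taken to log2 with no pseudocount or filter. The groups were compared with limma 3.58.1 in R 4.3.3 (lmFit, eBayes, 4.09 prior degrees of freedom), two-sided, with Benjamini-Hochberg adjustment over 44170 rows. The number of arrays limits precision. In simulated data, 200 of 44170 rows were changed. Of these, 81 of 100 with a log2 change of 2 and 2 of 100 with a change of 1 were called, beside 5 unchanged rows. The adjusted threshold is looser where more rows differ, as in the real data, with 1382 rows lower and 289 higher. The simulation thus does not give the share of real changes that was found. Same-numbered arrays did not deviate together (r = -0.0043 to 0.02), so no pairing was used.

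The genes and lists were chosen with earlier results of these data known. A gene of the partner list is not reported here. Partners named were, per role, the 2 smallest p past the threshold and the largest p, plus Casp8, Fadd, Cflar, Cyld, Tnfaip3, Birc2, Birc3, Zbp1, Xiap and Tnfrsf1a. Other partners named (Spata2, Ticam1, Traf2, Rnf31, Tbk1 and those given for a disagreement of rows, subunits or fits) were chosen after their values were seen. Alternatives changed the spread model, normalization, background, row choice, arrays and block.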

Additional observations from a re-analysis of the deposited data

How the results depend on the processing

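The sign of the Ripk2, Mlkl, Ripk1 and Nod1 differences was the same under each alternative that gave a difference per row; the alternatives that take the mean or the brightest row per gene gave counts only. With 1 array left out at a time, 4 to 5 of the 12 rows were lower past the threshold, 9 to 13 partners lower and 0 higher, and 831 to 1358 of all rows lower and 53 to 804 higher. Without LPS replicates 1 and 2 the counts were 0 of the 12 rows, 0 partners, and 0 lower and 0 higher of all rows; without LPS/GalN replicates 2 and 3 they were 1 of the 12 rows, 6 partners, and 350 lower and 26 higher. Both settings leave 1 array in a group. Subtracting the random-probe level left 3 of the 12 rows, 8 partners and 797 of all rows lower; Mlkl row B (-3.01) and Nod1 (-1.63) lost their calls with larger differences. A trend and robust spread model gave 3 partners and 1093 of all rows higher (2001 lower), and fitting only the rows of the deposited value table called 1 partner and 758 rows higher (1660 lower) and 6 of 7 rows of the RIP kinases, Mlkl and Nod1 lower, Ripk1 row B included, among fewer rows tested. With the replicate block, 4 of the 12 rows, 12 partners and 1030 of all rows were lower and 144 of all rows higher, with Nod1 the member lost at an unchanged difference of -1.57. For the other counts that moved, the cause was not tested. Rows near the random-probe level (Nod2, Ripk4, Ripk1 row C) set no limit on a true change.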

Other observations

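Target rows of transcripts that adjoin or overlap Ripk1 and Ripk2 were read after the values of those genes were known. A gene span on mm9 chromosome 13 (34078356 to 34094639) runs past 34094265, where the span of Ripk1 row A begins, and so overlaps it. The row of that neighbouring span read 388, 326 and 294 in LPS and 319, 239 and 535 in LPS/GalN, a difference of 0.04 ± 0.32 (SE). Its groups overlapped, unlike those of Ripk1 row A. Beside Ripk2 on chromosome 4, 2 rows that begin at 16091231 lay close to the random-probe level on all arrays, at 25.9 to 63.3 and 27 to 45.6, and their groups overlapped as well.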
